A study of Mus musculus with 2 samples.

Results

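H3K27ac peaks that were called in both genotypes but were far wider in the Gata2 KO list are described here. A pair was 1 KO peak and 1 f/f peak that overlapped each other by at least 1 bp and no other peak of the opposite list, on chromosomes 1 to 19. Of 27789 such pairs, the 300 with the largest KO minus f/f width were taken, or 1.08% of all pairs. The pairs were chosen by their own widths, which are therefore given as a description and support nothing. The comparison is between Gata2 KO cells (labelled Gata2 -/-, 1 library) and Gata2 f/f cells, which carry the floxed gene (1 library). Both are mouse MA9 leukaemia cells, that is, leukaemia driven by the MLL-AF9 fusion, collected from the bone marrow of primary animals. Cells were transduced with Cre or with MIT as control, sorted for GFP and tdTomato, and cultured for 7 to 9 days with IL-3, IL-6 and SCF; the labels do not tie a vector to either library by name. The age, sex and number of animals are not given in the labels, and the series title names drug resistance of acute myeloid leukaemia as the subject of the study. With 1 library per genotype, every difference below describes these libraries, has no replicate check and carries no p-value.

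Acetylation of lysine 27 of histone H3 marks active promoters and enhancers. Acetylated nucleosomes at a regulatory element can extend over several kilobases, and a broad peak caller joins neighbouring enriched stretches into 1 call. The width of a call therefore depends on the spread of the mark, on how far the signal clears the background, and on the joining. GATA2 is a zinc finger factor needed by blood stem and progenitor cells, and it works with TAL1, LMO2, RUNX1 and the ETS factors ERG, FLI1 and PU.1 at enhancers. In MLL-AF9 leukaemia the fusion protein keeps a programme active that includes the Hoxa genes, Meis1, Myb and Cdk6.

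The KO list held 37302 peaks and the f/f list 34313. Median peak width on chromosomes 1 to 19 was 1165 bp in KO and 1208 bp in f/f, and the median fold enrichment, the authors' own value for each peak, was 3.08 in KO and 3.50 in f/f. The libraries also stand apart in marks of sex. Peaks within 1 kb of a gene end were present at 3 of 4 Y-linked genes (Uty, Kdm5d, Eif2s3y) in KO and at 0 of 4 in f/f, while Xist had one in f/f only. A gene end is here either boundary of a gene, so gene starts are included. No KO peak was listed at the very start of chromosomes 4 and 13, and no f/f peak at that of chromosomes 6, 7, 18 and 19. No pair can lie in any of these blank stretches, and none of the 300 pairs lay within 1 Mb after one. Of 8 myeloid and MA9 marker genes, 5 had a gene-end peak in KO and 8 in f/f. Hoxa9, Meis1 and Mpo lacked one in KO. Of the 3 erythroid markers 1 (Klf1) had one in both lists, and of 4 stromal and endothelial markers 0 had one in KO and 1 (Pecam1) in f/f. The 2 epithelial and liver markers had a peak at 1 gene (Alb) in KO and at both in f/f. Whether sex, other cells or call depth have a part in the widths was not tested. In a pool of cells, more cells that carry the mark and more of the mark in each cell cannot be told apart.

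At some of the 300 pairs a promoter lay under the KO peak and outside the f/f peak, and the reference sequence of these windows shows what the added bases hold. RefSeq promoter windows (GRCm38.p6, 250 bases before to 50 after a gene start) lay wholly under the KO peak at 48 of the 300 pairs. At 9 pairs, 14 windows of 10 genes shared no base with the f/f peak, and 6 of these genes had no other start of their own under the f/f peak. These were Ly6a2, a gene of the Ly6 surface antigen family, Tmem79, a membrane protein gene, Ltb, which encodes lymphotoxin beta, Arhgap22, a GTPase activating protein gene, Ccl27a, a skin chemokine gene, and P2ry13, an ADP receptor gene. The other 4 genes, Dennd2d, Arrdc3, Fbxl12 and Ubl5, had another start of their own inside the f/f peak. Starts of other genes were not counted here, and at the Tmem79 pair the f/f peak lay over a start of the gene Smg5. Ccl27a belongs to a group of near-identical gene copies in the mouse, between which reads can be split or lost. Of the windows printed, those of Ly6a2 (chr15:75135079-75135378, minus strand), Arhgap22 (chr14:33216573-33216872, plus strand) and Ccl27a (chr4:41774052-41774351, minus strand) hold the ETS word CGGAAG or its reverse complement CTTCCG, shown in capitals. The Ltb window (chr17:35194257-35194556, plus strand) holds neither and is shown beside them as the most GC-rich of the 6.
Ly6a2: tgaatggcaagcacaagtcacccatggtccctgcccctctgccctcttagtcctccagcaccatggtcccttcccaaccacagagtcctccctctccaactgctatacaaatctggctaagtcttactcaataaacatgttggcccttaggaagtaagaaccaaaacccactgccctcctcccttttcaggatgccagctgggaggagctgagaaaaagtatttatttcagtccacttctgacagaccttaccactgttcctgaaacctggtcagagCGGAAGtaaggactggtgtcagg
Arhgap22: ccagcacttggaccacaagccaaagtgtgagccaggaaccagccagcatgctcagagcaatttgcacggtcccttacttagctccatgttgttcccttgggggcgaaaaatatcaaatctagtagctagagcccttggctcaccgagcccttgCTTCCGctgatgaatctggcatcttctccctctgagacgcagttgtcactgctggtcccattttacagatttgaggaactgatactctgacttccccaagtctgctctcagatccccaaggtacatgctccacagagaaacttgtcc
Ccl27a: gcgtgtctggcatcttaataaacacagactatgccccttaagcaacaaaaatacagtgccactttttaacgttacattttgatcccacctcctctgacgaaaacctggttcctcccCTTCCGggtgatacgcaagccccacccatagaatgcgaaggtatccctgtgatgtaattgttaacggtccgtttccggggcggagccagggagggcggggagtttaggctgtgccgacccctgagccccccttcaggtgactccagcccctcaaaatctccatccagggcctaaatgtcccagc
Ltb: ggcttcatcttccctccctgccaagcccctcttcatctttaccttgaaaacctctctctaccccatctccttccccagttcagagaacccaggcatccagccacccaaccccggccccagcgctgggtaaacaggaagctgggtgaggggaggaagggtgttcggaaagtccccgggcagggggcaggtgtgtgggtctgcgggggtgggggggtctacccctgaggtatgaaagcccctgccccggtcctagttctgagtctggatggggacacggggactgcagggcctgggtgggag
The starts in these windows lay 2172 bp (Ly6a2), 2252 bp (Arhgap22), 1376 bp (Ccl27a) and 899 bp (Ltb) from the nearest base of the f/f peak. That of Arhgap22 is an inner start of the gene, whose outer end in the gene table, at 33213994, lies just before the f/f peak (from 33214082). GC content was 50.7%, 51.3%, 53.7% and 63.3%, in the same order, against a median of 56.7% over all 21045 windows. Ly6a2, Arhgap22 and Ltb held 1, 5 and 7 CpG dinucleotides, fewer than the median of 13, and Ccl27a held 12. Over the 10 genes, CGGAAG on either strand was present in 3 windows, against 21.3% of all windows. The GATA motif, searched on both strands as the word AGATAA or the word TGATAA or, with G at the end, as the word AGATAG or the word TGATAG, was in 0 of the 10, against 25.8% of all windows. The AP-1 word TGANTCA was in 0, against 7.04%. With 10 windows these counts describe the windows and no more.

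Among all pairs, slightly fewer KO peaks were wider than narrower, while their summed width was larger by 211.861 kb in KO. Subtracting f/f from KO width gave a median of -12 bp (95% order-statistic interval -15 to -9), with quartiles of -166 and 159 bp. The KO peak was wider in 13225 pairs (47.6%) and narrower in 14492 (52.2%), and 72 pairs had equal widths. Among pairs whose peaks were both at least 3-fold enriched, the median was -19.0 bp. The tails were of like size on both sides. The KO peak was at least 2 times as wide in 1234 pairs (4.44%) and at most 0.5 times as wide in 1236 (4.45%), and the 300th place lay at 1740 bp on the wide side and at -1782 bp on the narrow side. Because the f/f width is itself subtracted, narrow f/f peaks lean to positive and wide ones to negative differences by construction. When pairs were cut into 5 equal bins by f/f width, the median in the bin of the narrowest f/f peaks, from 424 to 880 bp, was 102 bp, and 64.3% were wider in KO. In the bin of the widest f/f peaks, from 1800 to 11107 bp, it was -70 bp, and 38.6% were wider in KO.

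**Figure D1:**
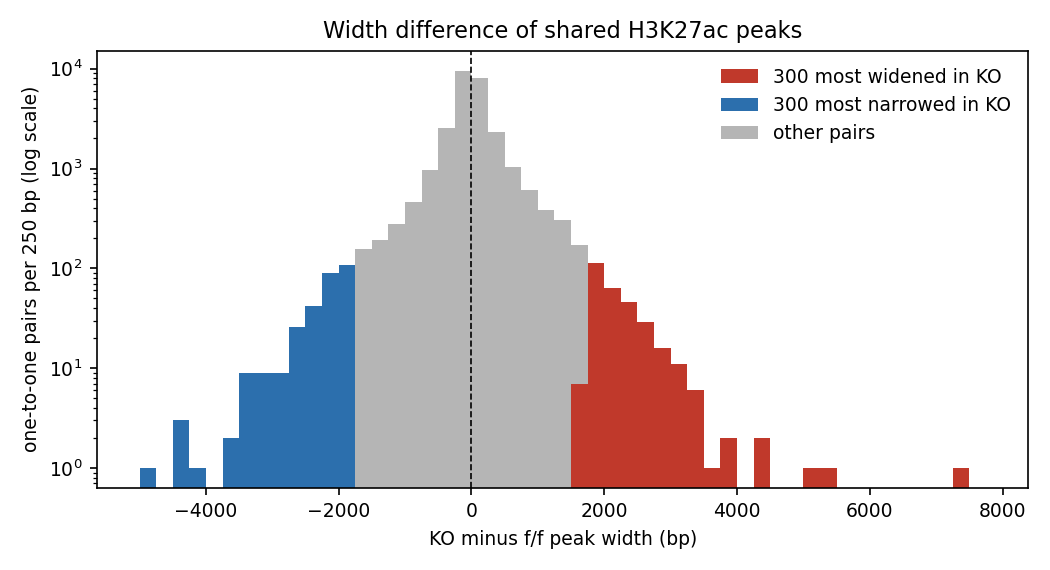
Number of paired peaks (log scale) by KO minus f/f width in bins of 250 bp. The 300 most widened pairs (red, 1740 bp and more) and the 300 most narrowed pairs (blue, -1782 bp and less) form tails of similar height around a distribution with a median of -12 bp.

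The 300 most widened pairs had KO peaks of 2195 to 9041 bp (median 3330) over f/f peaks of 428 to 4991 bp (median 1096). Their difference ran from 1740 to 7481 bp, with a median of 2130 bp (interval 2059 to 2172) and quartiles of 1899 and 2476 bp. The KO peak was at least 2 times as wide in 264 of the 300, at least 3 times in 156 and at least 5 times in 37. Most of these loci thus had an ordinary or narrow f/f call beneath a broad KO call. By width, the KO peaks had a median percentile of 97.7 within the KO list, and the f/f peaks one of 41.6 within the f/f list. Together the 300 pairs covered 1064.57 kb in KO, against 381.571 kb in f/f. The bin of the narrowest f/f peaks held 111 of the 300, and the other bins, from narrow to wide, held 51, 43, 42 and 53. All 300 most narrowed pairs lay in the bin of the widest f/f peaks, as a loss of that size requires a wide f/f peak.

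**Figure D2:**
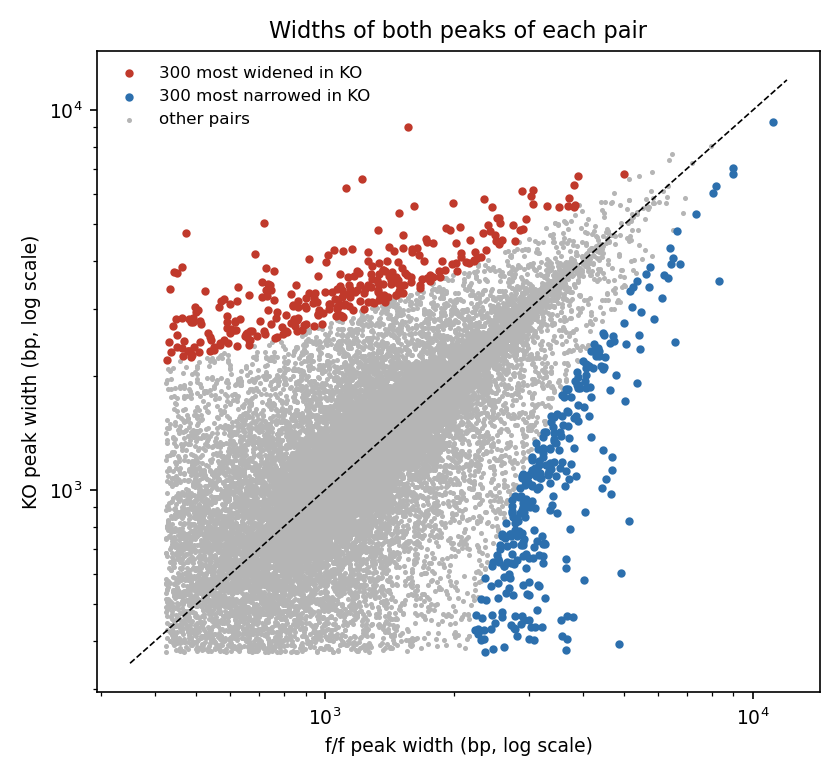
KO peak width against f/f peak width of each pair (both axes in bp, log scale), with the line of equal width dashed. The 300 most widened pairs (red) have f/f widths of 428 to 4991 bp. The 300 most narrowed pairs (blue) start at 2239 bp, since a peak cannot lose more bases than it has.

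At the 300th place the ranking had no natural break. Just inside were pairs nearest to the predicted gene Gm40514 (2406 bp in KO and 663 bp in f/f), to Ppp3ca, a calcineurin catalytic subunit gene (3771 bp and 2031 bp), and to Sik2, a salt-inducible kinase gene (4518 bp and 2778 bp). Just outside were those nearest to Ndst1, a heparan sulfate sulfotransferase gene (2643 bp in KO and 903 bp in f/f), Rnf149, a RING finger gene (2951 bp and 1212 bp), and Rab27a, a secretory Rab GTPase gene (3407 bp and 1668 bp). A difference of 1740 bp was shared by 3 pairs, of which 2 were taken by chromosome order.

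The largest difference stood in the intergenic stretch between Wnt7b, a Wnt ligand gene, and Ppara, a nuclear receptor gene of fatty acid oxidation, on chromosome 15. The KO peak at chr15:85663811-85672851 was 9041 bp wide, and the f/f peak beneath it 1560 bp. It lay 62.1 kb from Ppara, and 6357 of the added bases were on its left side. Its neighbour 70.7 kb from Wnt7b, at chr15:85652523-85658772, was 6250 bp wide in KO and 1120 bp in f/f and ranked at place 3. Both pairs lay within 20.3 kb and together added 12611 bp. Between them in rank came the peak over the start of Mrpl33, a mitochondrial ribosomal protein gene (chr5:31613934-31620524). It had 6591 bp in KO and 1222 bp in f/f, and 5512 bp were added to the right.

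The next pairs lay at genes of varied function. The peak 12.9 kb from Tsc22d2, a TSC22-family leucine zipper gene, was 5031 bp wide in KO and 719 bp in f/f. The peak 36.2 kb from Tha1, the threonine aldolase gene, was 4739 bp wide in KO and 474 bp in f/f, which at 10.0 times was the largest ratio of widths. Dennd2d, a DENN-domain gene of Rab GTPase exchange (5590 bp in KO and 1612 bp in f/f), and AI413582 (5356 bp and 1487 bp) were widened at a gene end. Ifnar2, which encodes a subunit of the type I interferon receptor, had its widened peak 13.3 kb away (5685 bp in KO and 1994 bp in f/f). Cyth4, a cytohesin gene of ARF activation, was widened over its start (4828 bp in KO and 1329 bp in f/f) and Ankrd44, an ankyrin repeat gene, inside the gene (5843 bp and 2347 bp). Large ratios were found where the f/f call was close to the narrowest in its list. The peak inside Pacs2, a membrane sorting gene, had 3873 bp in KO and 463 bp in f/f (ratio 8.37). The peak 28.7 kb from Gpc1, a glypican gene, had 3753 bp in KO and 443 bp in f/f (8.47), and that 9.04 kb from Zfp42, the pluripotency factor gene also called Rex1, 3730 bp and 450 bp (8.29). The peak 12.0 kb from Rnf150, a RING finger gene, had 3387 bp in KO and 435 bp in f/f (7.79).

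The rest of the first 25 were as varied. Inside Sgms2, a sphingomyelin synthase gene, the peak was 4176 bp wide in KO and 685 bp in f/f. Inside Gabpb1, whose product pairs with an ETS factor, both calls were wide (6106 bp in KO and 2879 bp in f/f) and both were strong, at percentiles 97.8 and 96.1 of -log10 p within their own lists. All peaks nearest to Gabpb1 covered 6.11 kb in KO, against 7.70 kb in f/f, and those nearest to Tsc22d2 11.0 kb, against 12.3 kb. At the other genes of the first 25, peaks covered more in KO. The ratio of widths was 2.12 at Gabpb1, 2.27 at Lrp1 and 2.01 at Slc49a4, the 3 smallest among the first 25. Lrp1, an endocytic receptor gene, had 5570 bp in KO and 2450 bp in f/f, and Slc49a4, a lysosomal transporter gene, 6174 bp and 3067 bp. Csf1, the macrophage growth factor gene, had a widened peak 20.7 kb away, with 4145 bp in KO and 1017 bp in f/f. Arrb2, the beta-arrestin 2 gene, had 4690 bp in KO and 1519 bp in f/f, Snx18, a sorting nexin gene, 4319 bp and 1156 bp, and Zbtb39, a zinc finger gene, 3777 bp and 758 bp, all at a gene end. The remaining pairs were nearest to Mepe (4278 bp in KO and 1051 bp in f/f), a bone matrix gene, to Dhrs7b (4255 bp and 1101 bp), a dehydrogenase gene, to Arfgap3 (4053 bp and 917 bp), an ARF GTPase activating protein gene, and to Coro2b (3830 bp and 729 bp), a coronin gene.

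**Figure D3:**
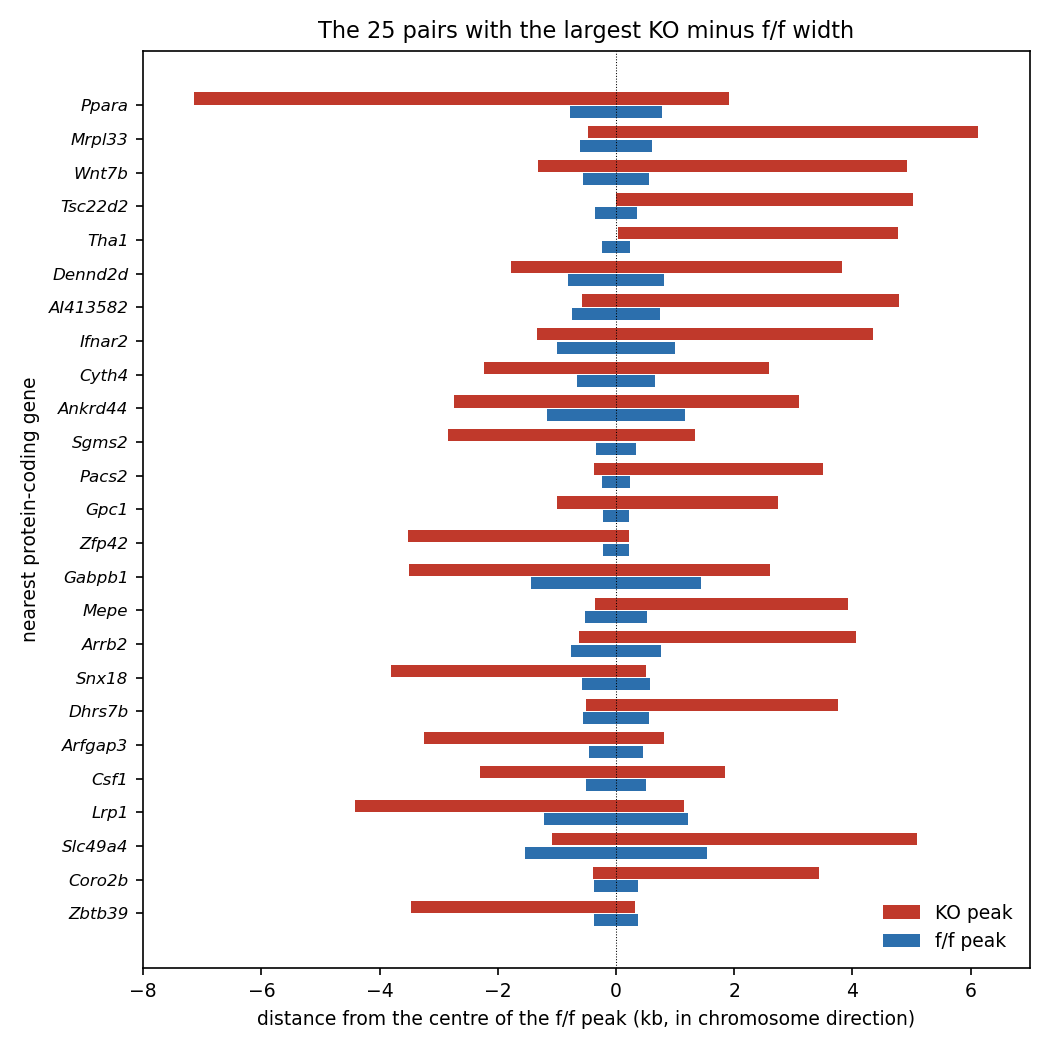
Extent of the KO peak (red) and the f/f peak (blue) at the 25 pairs with the largest difference, in kb from the centre of the f/f peak along the chromosome, labelled by the nearest protein-coding gene. The KO peak of the first pair, 62.1 kb from Ppara, extends 6357 bp to the left of the f/f peak, and most KO peaks reach far beyond the f/f peak on 1 side.

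The added bases lay mostly on 1 side. At least 90% of them stood on 1 side in 229 of the 300 pairs (76.3%, 95% Wilson interval 71.2 to 80.8). This share was not taken over all pairs. The larger side had a median of 2080 bp against 2 bp on the smaller side. There, f/f bases outside the KO peak counted as negative (lower quartile -116.25 bp). Intervals cover counting error only. The f/f peak lay wholly inside the KO peak in 153 pairs (51.0%, 45.4 to 56.6), against 21.7% of all pairs. The KO peak reached beyond it on the left alone in 79 (26.3%) and on the right alone in 68 (22.7%). Over all pairs these shares were 24.8% and 24.7%, and 28.8% had no added bases on either side. Of all pairs, 52.2% had a narrower KO peak, which cannot hold the f/f peak. The choice of the 300 by width therefore raises the share of f/f peaks wholly inside the KO peak by construction, and leaves no pair without added bases. On both sides, 39 pairs (13%) added at least 500 bp and 15 (5%) at least 1000 bp. Cmip, Gpr146, Fblim1, Tex2 and Gse1 were among these 15 and were chosen for naming after their values were seen. At Cmip, an adaptor gene, the KO peak of 4834 bp added 1462 bp on the left and 1419 bp on the right of an f/f peak of 1953 bp. Bases were added about as often against the direction of the gene as along it. At 51 pairs with gene starts of a single strand under the f/f peak, more bases were added downstream in 24 (47.1%, 34.1 to 60.5) and upstream in 27. Over the 51 pairs, the medians were 1249 bp downstream and 1429 bp upstream. Over all 6584 such pairs, the downstream side gained more or lost fewer bases in 54.7%. There the medians were -2 bp downstream and -19.5 bp upstream, so this share is not one of added bases alone.

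Most of the 300 pairs lay away from gene ends. A gene end was within 1 kb of the KO peak in 86 (28.7%, 23.8 to 34.0), against 33.2% of all pairs. The KO peak lay inside a gene and away from its ends in 132 (44.0%), against 39.0%, and between genes in 82 (27.3%), against 27.8%. Of the 3102 other pairs with a KO peak of at least 2195 bp, 40.2% (38.5 to 42.0) were at a gene end. A gene start lay under the KO peak in 60 of the 288 pairs on chromosomes with promoter windows (20.8%, 16.5 to 25.9), against 26.8% of all pairs and 32.5% of the other wide pairs. Under the f/f peak the shares were 18.4%, 27.1% and 32.6%. The share at a gene end moved with the ranking: it was 16.3% when pairs were ranked by ratio and 44.7% among pairs with a -log10 q of at least 5 in both lists.

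**Figure D4:**
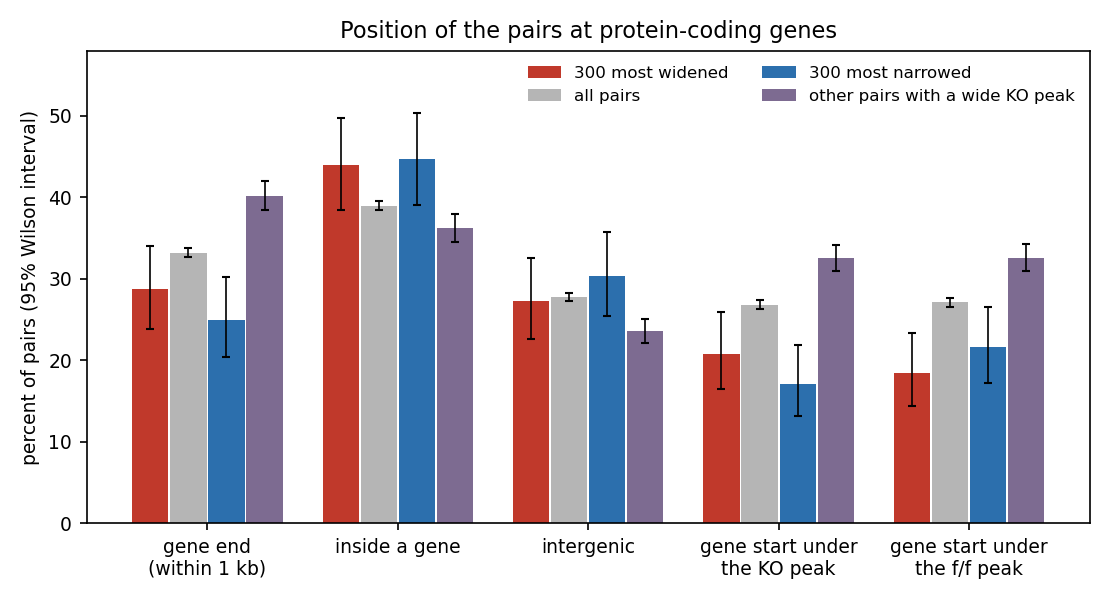
Percent of pairs by position of the KO peak at protein-coding genes, and percent with a gene start under either peak, with 95% Wilson intervals. The 300 most widened pairs (red) were at a gene end in 28.7%, all pairs (grey) in 33.2%, the 300 most narrowed pairs (blue) in 25% and other pairs with a KO peak of at least 2195 bp (purple) in 40.2%. The median KO width was 3330 bp in red and 1053.5 bp in blue.

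Scored by the KO peak, the opposite tail had like positions. Of the 300 most narrowed pairs, 25% (20.4 to 30.2) lay at a gene end, 44.7% inside a gene and 30.3% between genes. The KO peak had a median width of 3330 bp in the most widened and 1053.5 bp in the most narrowed pairs, which alters its reach. A gene start lay under the KO peak in 20.8% of the most widened and 17.1% of the most narrowed. Under the f/f peak the order turned, with 18.4% and 21.6%. Distances of over 2 kb to any gene end were found in 68.0% of the most widened pairs, 70.7% of the most narrowed and 63.9% of all. Over 100 kb away were 14 of the most widened (4.67%), the farthest 431.1 kb from Vrk2, a kinase gene, against 6.77% of all pairs. Those not at a gene end had a median distance of 16.8 kb, and all such pairs one of 18.4 kb. The bases added in KO came to 707.506 kb, of which 60.3% were inside genes and 9.56% within 1 kb of a gene end. Of the f/f bases beneath, 67.5% and 19.5% were so placed.

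By strength, the 300 pairs held fewer strong calls than the pairs at large. Within the KO list their median percentile was 49.1 by -log10 p and 20.2 by fold enrichment, and over all pairs it was 60.4 and 59.0. Within the f/f list it was 41.8 and 33.3, and over all pairs 57.4 and 56.3. Both peaks reached a fold enrichment of 3 in 40 of the 300 (13.3%), against 58.3% of all pairs, and both reached a -log10 q of 5 in 155 (51.7%), against 66.4%. The fold enrichment is a value of the whole call, and the KO calls here were wide with a low fold. Strong calls were present too: at Spi1 the percentile by -log10 p was 82.7 in KO and 88.0 in f/f, and at Irf2bp2 it was 85.5 in KO and 86.1 in f/f for the peak at the gene.

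Each of the 19 chromosomes held some of the 300, from 5 on chromosome 19 (0.530% of its pairs) to 30 on chromosome 2 (1.34%). The shares were highest on chromosome 18 (12 pairs, 1.58%) and chromosome 15 (18 pairs, 1.52%). The nearest genes numbered 285, and 12 of them were nearest to more than 1 of the pairs. The 12 genes had from 2 pairs in all (Arrb2) to 23 (Cdk6), and a gene with more pairs has more places for one of the 300. Within 100 kb of another of the 300 lay 42 pairs, in 19 groups. The same counts were not made for the most narrowed or for other pairs. Whether the 300 lie closer together than other pairs was therefore not tested, and the groups below are a description. Inside Baz2b, a bromodomain gene of chromatin remodelling, 4 pairs added 8383 bp within 71.6 kb, with widths of 4758, 3631, 4234 and 2382 bp in KO and of 2337, 1591, 2243 and 451 bp in f/f. The gene had 17 pairs, 12 wider and 5 narrower in KO, and peaks nearest to it covered 53.7 kb in KO, against 42.9 kb in f/f. Near Chd2, a chromatin remodeller gene, 3 intergenic pairs added 6196 bp, with widths of 4537, 3118 and 2784 bp in KO and of 2584, 956 and 703 bp in f/f. Of its 14 pairs 6 were wider and 8 narrower in KO, while the peaks nearest to it covered 39.3 kb in KO, against 28.1 kb in f/f. At Arrb2 and its neighbour Pelp1, a nuclear receptor coregulator gene, 3 pairs added 7676 bp within 53.6 kb.

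Pairs of widened peaks stood at Gpc1, Arhgap22, Cdk17, Tspan14, Ncapg2, Jmjd1c, Cdk6, Irf2bp2 and Arhgap26, where the single differences were as follows. Gpc1 had 3310 and 2169 bp, all 6 of its pairs were wider in KO, and its peaks covered 17.5 kb in KO, against 7.21 kb in f/f. Arhgap22 had 2348 and 1930 bp, with 5 of 6 pairs wider, and 13.4 kb covered in KO and 5.25 kb in f/f. Both loci had more bases under peaks in KO beyond the pairs counted here. Irf2bp2, the gene of an IRF2-binding corepressor, had 2515 bp at a peak 107.8 kb away and 1802 bp at the gene itself, with 15 of 20 pairs wider and 45.9 kb covered in KO against 34.6 kb in f/f. Cdk17, a cyclin-dependent kinase gene, had 2428 and 2089 bp, with 4 of 10 pairs wider, and Ncapg2, a condensin II subunit gene, 1995 and 1831 bp, with 4 of 5 wider. Tspan14, a tetraspanin gene, had 2076 and 1755 bp with 5 of 6 wider, and Arhgap26, a GTPase activating protein gene, 2514 and 1832 bp with 7 of 15 wider. Groups of 2 genes also joined Rac2, a haematopoietic GTPase gene, with Cyth4 (5657 bp within 36.2 kb), and Bmf, a BH3-only apoptosis gene, with Bub1b, a spindle checkpoint gene (5640 bp within 55.9 kb).

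Other peaks around the 300 pairs covered more bases in KO. Only the peaks of the pair itself were left out, so others of the 300 within 50 kb, wider in KO by choice, were counted. As given above, 42 of the 300 lay within 100 kb of another. Within 50 kb, other peaks covered a median of 7295 bp in KO and 6195 bp in f/f. The median difference of each locus was 738 bp (488 to 1009), and it was above 0 at 199 loci (66.3%), below at 94 and equal at 7. Around all pairs it was 200 bp (177 to 223) and above 0 at 56.0%, and around the most narrowed pairs 0 bp (-114 to 70) and above 0 at 47.3%. This did not hold for every way of choosing the pairs. When the 300 were chosen again among peaks enriched at least 3-fold, of which 40 were the same pairs, the figure around them was -140 bp. Chosen again from peaks whose -log10 q reached 5, with 155 the same, it was 33.5 bp, and with lists cut to equal length, with 288 the same, 388 bp. The other 1090 pairs at the same nearest genes had a median width difference of 9.5 bp (-7 to 25), and 51.5% were wider in KO, against -15 bp and 47.0% over all pairs outside the 300.

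Among genes listed by function or cell type, 13 were nearest to 15 of the 300. They came from 19 lists of 417 genes, of which 415 were found and 311 had a pair. The 15 were 1.48% of the 1011 pairs at listed genes, against 1.08% of all pairs. The list of Hoxa and other MLL-fusion target genes held 6 of them in 125 pairs (4.80%), at Cdk6, Jmjd1c, Myb and Lmo2. Over all its pairs the balance was the other way, with 47 wider and 78 narrower in KO and a median of -78 bp, against -12 bp over the 27789 pairs.

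Cdk6, the G1 kinase gene that MLL-rearranged leukaemia depends on, had a peak of 5590 bp in KO and 3701 bp in f/f at the gene end, and one of 3330 bp in KO and 1156 bp in f/f inside the gene. Of its 23 pairs, 11 were wider and 12 narrower in KO, while its peaks covered 52.7 kb in KO, against 40.8 kb in f/f. The differences at this gene ran from -835 to 2174 bp, the widest gains being larger than the widest losses. Myb, the proto-oncogene of progenitor self-renewal, had a peak inside the gene, 2.94 kb from its nearer boundary (chr10:21127868-21131008), of 3141 bp in KO and 570 bp in f/f. The KO call there was weak, at percentile 14.7 of -log10 p, and that of f/f at percentile 36.7. Of its 7 pairs 5 were wider in KO, and its peaks covered 18.8 kb in KO, against 15.3 kb in f/f. Jmjd1c, a gene of the histone demethylase family, had internal peaks of 2697 and 2621 bp in KO over 441 and 808 bp in f/f, yet its peaks covered 17.9 kb in KO, against 17.4 kb in f/f. Lmo2, the bridging factor of the TAL1 complex, had a peak 22.4 kb away of 3789 bp in KO and 1911 bp in f/f, with 5 pairs wider and 5 narrower.

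The list of GATA2 partner factors held 2 of the 300 in 113 pairs (1.77%), at Lmo2 and at Spi1, and its median was -58 bp. Spi1, which encodes the myeloid factor PU.1, had a peak of 5858 bp in KO and 3714 bp in f/f at the gene end (chr2:91079174-91085031), and 2624 bp were added to the left. Of its 4 pairs 3 were wider, and its peaks covered 11.6 kb in KO, against 8.72 kb in f/f. The stem and progenitor list held 1, inside Hmga2, a chromatin architecture gene (2737 bp in KO and 985 bp in f/f), and the list's median was -70 bp. At Hmga2 this peak went against the gene as a whole, whose peaks covered 4.03 kb in KO, against 9.29 kb in f/f.

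Apoptosis and p53 genes held 3 of the 300 in 90 pairs (3.33%), 55 of which were wider and 34 narrower in KO, with a median of 46.5 bp. Bak1, a pore-forming effector of mitochondrial apoptosis, had a gene-end peak of 3646 bp in KO and 1465 bp in f/f. Bcl2l11, the gene of the BH3-only protein BIM, had a peak 85.1 kb away of 2484 bp in KO and 663 bp in f/f. Mcl1, an anti-apoptotic gene, had a peak 2.25 kb away of 4508 bp in KO and 2508 bp in f/f. The peak inside Mcl1 itself went the other way, with 1890 bp in KO and 3874 bp in f/f, and is among the 300 most narrowed. Peaks nearest to Mcl1 covered 9.54 kb in KO, against 9.70 kb in f/f.

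The neutrophil list held 1, at S100a8, a calprotectin subunit gene (2515 bp in KO and 764 bp in f/f), in 27 pairs with a median of 98 bp. The cytokine receptor list held 1 at Il17ra, the IL-17 receptor gene (4012 bp in KO and 1394 bp in f/f), with a median of 15 bp over 94 pairs. The inflammation list held 1 at Zfp36, whose product speeds decay of cytokine mRNAs (3947 bp in KO and 1333 bp in f/f), with a median of 27 bp over 59 pairs. The only other pair at Zfp36, 2.10 kb away, was narrower in KO, with 1266 bp in KO and 2977 bp in f/f. The dendritic cell list held 1 near Siglech, a plasmacytoid dendritic cell lectin gene (2937 bp in KO and 771 bp in f/f), with a median of 21 bp over 39 pairs. The cell cycle list held only the 2 pairs at Cdk6 already given, and its median was 44 bp over 69 pairs.

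For the symbols placed in them, the remaining 10 lists held none. Their medians were 121.5 bp over 12 pairs at erythroid and megakaryocyte genes, 2 bp over 26 at interferon genes and -4.5 bp over 108 at AP-1, EGR and KLF genes. They were -22.5 bp over 26 pairs at stromal and other-organ genes, -26 bp over 54 at drug efflux and cytarabine metabolism genes, -58 bp over 41 at unfolded protein response genes and -63 bp over 93 at monocyte genes. Ubiquitously expressed genes had -85 bp over 24 pairs, B, T and NK cell genes -100.5 bp over 16, and mast cell and basophil genes -235 bp over 30, of which 8 were wider and 22 narrower in KO. With so few pairs in a list, a count of 0 or 1 is near the background of 1.08%. These counts also depend on the symbols chosen, as a list does not hold every gene of its class. Klf7, Ifnar2 and Irf2 stood in no list, yet each was nearest to a most widened pair. The differences there were 2142 bp (Klf7), 3691 bp (Ifnar2) and 1900 bp (Irf2). Klf7 and Irf2 were chosen for naming after their values were seen.

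**Figure D5:**
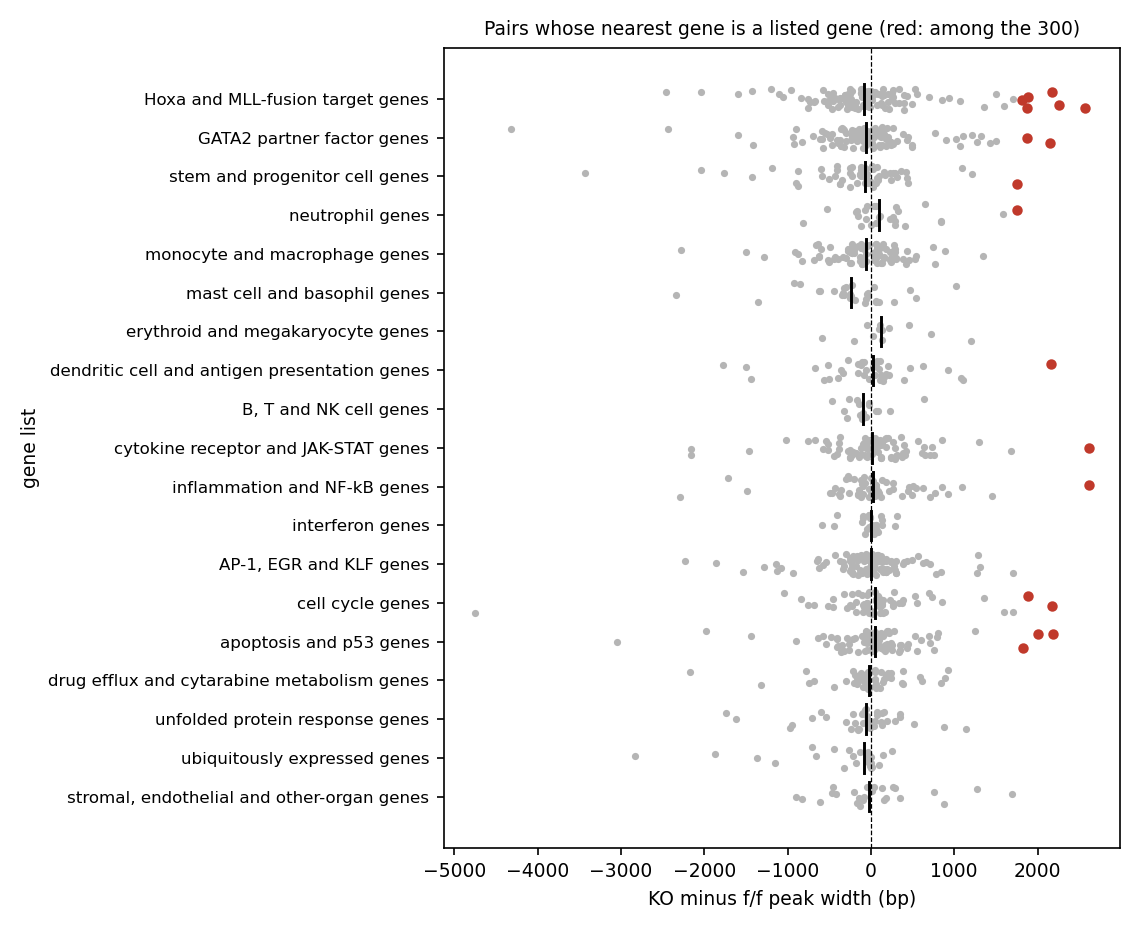
KO minus f/f width (bp) of each pair whose nearest gene is in a list, with pairs among the 300 most widened in red, other pairs in grey and the list median as a black bar. The list of Hoxa and MLL-fusion target genes holds 6 red points at a median of -78 bp, and list medians run from -235 bp for mast cell and basophil genes to 121.5 bp for erythroid and megakaryocyte genes.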

How the data were processed

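H3K27ac ChIP-seq peak lists of 1 Gata2 KO and 1 Gata2 f/f library were used, grouped by the genotype in the labels. BWA, SAMtools, MACS2 and mm10 are named in the submitters' processing notes. Neither versions nor settings, nor a control library or read totals, are stated there, and depth is therefore unknown. Each deposited broad peak has a position, a score (not used), a fold enrichment (a ratio to the background) and -log10 values of p and q, all by the authors. In both lists -log10 q began at 1.01. These values rank or filter peaks within a list only.

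Overlaps gave 28343 peak contacts and 27789 pairs, as bedtools 2.31.1 did. Width is end minus start. Left out were 8290 KO and 5417 f/f peaks with no overlap, and 474 KO and 350 f/f peaks in contacts of 1 peak with several, among which 79 KO and 197 f/f peaks overlapped more than 1 peak themselves. Neighbouring peaks of a list were at least 1498 bp apart in KO and 1697 bp in f/f. Gene ends came from a GRCm38.p6 table, the same build as mm10. Gene starts, strand and promoter sequences came from RefSeq windows for 17274 of 21631 coding genes, with none on chromosome 18. Median intervals are 95% order-statistic intervals. The pairing was tested on simulated data. Distances are to the nearer end of the nearest protein-coding gene, an overlapped gene first.

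The pairs, gene lists and rules were chosen with earlier results of these data known. Genes named are those nearest to the 25 largest differences and 5 largest ratios, to more than 1 pair, listed genes, promoters under added bases and the 3 pairs on either side of the 300th place. Others are named as chosen after their values were seen. Lists overlap in 18 symbols. The check of lymphoid markers is not reported here. The alternatives were another ranking, stricter or equal-sized lists, half-overlap, joining, chromosome X, 150 and 600 pairs, gene-end windows of 500 and 2000 bp and the position of the f/f peak.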

Additional observations from a re-analysis of the deposited data

How the results depend on the processing

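No paired analysis was possible because each genotype has 1 library, and for the same reason no library could be left out. Under each setting the pairs were chosen again. Ranked by ratio of widths, the 300 pairs shared 149 with those described, with a median difference of 1723 bp, added bases on both sides in 62.0% and a gene end in 16.3% (12.7% of the most narrowed). With a -log10 q of at least 5 in both lists, 155 were shared. Of all pairs 47.0% were wider in KO, the most widened had a median of 1836 bp, and 44.7% of them were at a gene end and 36.3% inside a gene (33.3% of the most narrowed at a gene end). The median difference of surrounding bases was 33.5 bp. With at least 3-fold enrichment, 40 were shared, all pairs had a median of -19.0 bp and 44.9% were wider, and the most widened had 1290 bp, 42.7% at a gene end and 32.0% inside a gene (40.0% of the most narrowed at a gene end). The difference around these newly chosen pairs was -140 bp. With lists cut to equal length, 288 were shared, and the surrounding difference was 388 bp. Taking 150 or 600 pairs gave medians of 2479 and 1740 bp, as the number taken fixes. By the position of the f/f peak, 22.0% of the most widened and 31.3% of the most narrowed were at a gene end. Joining peaks within 2000 bp, chosen after the data were seen since none lay within 500 bp, shared 142 and gave 2496 bp. Half-overlap shared 289 and chromosome X 296. The cause of these moves was not tested. Of the 300, 5 were kept under each of the 11 settings that can change them. Of the first 25, 0 were kept under all 11. The count of 5 is bounded in advance, as taking 150 pairs drops the lower places by definition. At 3-fold enrichment only 40 of the 300 were still pairs. The gene-end windows of 500 and 2000 bp, and leaving out the blank chromosome starts, moved no summary beyond its interval. Unknown read depth and a single library per genotype limit every width given.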
